A study of Mus musculus with 11 samples.

Results

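Cytochrome P450 enzymes, encoded by the Cyp genes, were measured in the rectal mucosa of mice in which tamoxifen is meant to delete Itga6, the gene of integrin α6, from the intestinal epithelium. The members were all genes whose symbol in the platform annotation begins with Cyp followed by a digit, without Cyp51 and Cyp24a1, and read by a transcript cluster (the array's probe set for 1 gene) that carries a single symbol. They came to 86 of the 19946 genes tested, each with 1 cluster, and values are log2 signals normalised by the authors with RMA. The array gives 1 value per animal, so the number of animals limits the precision. RNA came from whole pieces of rectal mucosa, in which fewer cells of a type and less RNA per cell cannot be told apart.

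The 3 groups were all aged 10 weeks and the first gavage was given at 8 weeks, 15 days before the tissue was taken. The mutant tamoxifen group held 4 α6ΔIEC-TAM mice given tamoxifen by gavage at 10 mg per day, in 2 doses over a course of 5 days. The control tamoxifen group held 3 wild type mice given the same tamoxifen. The mutant NaCl group held 4 α6ΔIEC-TAM mice given NaCl in its place, so they carry the mutant genotype without the drug. A single animal was male in each mutant group (replicate 3 with tamoxifen, replicate 4 with NaCl) and 2 of the 3 controls were male (replicates 1 and 3), so sex was a term of the model. The promoter that drives the tamoxifen-dependent recombinase is not given in the sources used here. Array correlations within a group ran from 0.988 to 0.997 and between groups from 0.977 to 0.997. Itga6 itself went against its label: its log2 level was 11.75 to 11.93 with tamoxifen in the mutants against 11.15 to 11.52 in the controls, a difference of 0.42 (SE 0.10, adjusted p = 0.00950) that missed the threshold without replicate 3 with tamoxifen (0.40, adjusted p = 0.0614). Against mutant NaCl, at 11.28 to 11.49, it was higher by 0.41 (SE 0.08, adjusted p = 0.00530), a call kept with each array left out in turn, and all 4 mutant tamoxifen arrays lay above all 7 others. Where the cluster's probes lie relative to the deleted part is not known here, and directions below follow the group labels.

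P450 enzymes are haem proteins that insert an oxygen atom into small lipophilic molecules, with electrons passed on from a reductase. The families differ in what they oxidise. The CYP1, CYP2 and CYP3 families handle drugs, plant compounds and toxins, and several CYP2 enzymes also oxidise arachidonic acid. CYP4 enzymes oxidise the tail of fatty acids and leukotrienes, and the others make or break down bile acids, oxysterols, steroids, retinoic acid and vitamin D. In the gut many of them are made by the absorptive cells at the surface, under nuclear receptors such as HNF4α, PXR and VDR.

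Against the control tamoxifen group, 24 of the 86 P450 genes were lower and 4 were higher in the mutant tamoxifen group (limma, Benjamini-Hochberg adjusted p under 0.05 over all 19946 genes). Of all genes tested 11.8% were lower and 12.9% higher. Against the mutant NaCl group, 20 P450 genes were lower and 6 higher, beside 10.7% of all genes lower and 12.5% higher. Both comparisons share the 4 mutant tamoxifen arrays, so they are not independent and their values are given side by side. The median log2 difference over the 86 members was -0.06 against the controls and -0.04 against mutant NaCl, and over all genes -0.02 and -0.01. Of the 24 lower members 17 differed by at least 1.5-fold from the controls, and none of the 4 higher ones did. Over all genes, 387 of the 2345 lower ones and 530 of the 2570 higher ones did. In 16 members all 4 mutant tamoxifen arrays lay below all 7 others, against 10.1% of all genes, and in 3 members they lay above all 7 others, against 12% of all genes.

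**Figure D1:**
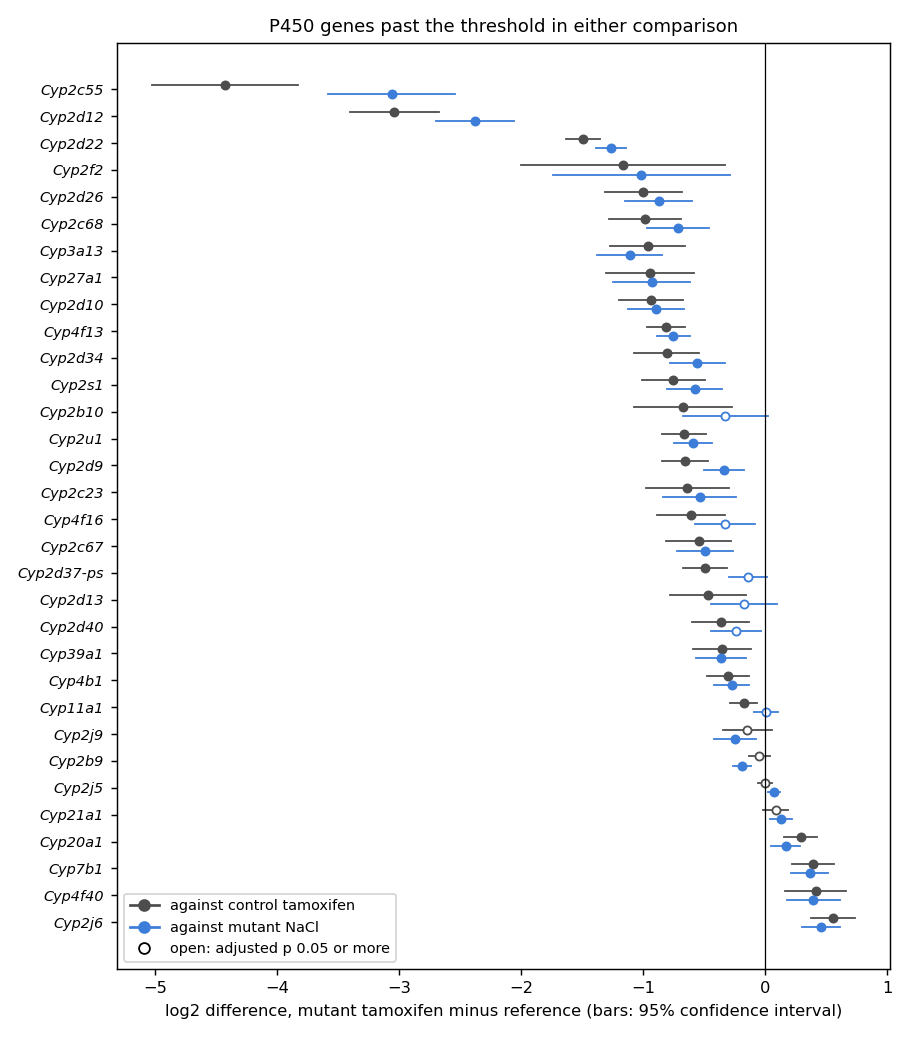
Log2 difference of the mutant tamoxifen group from control tamoxifen (grey) and from mutant NaCl (blue) for the 32 P450 genes past the threshold in at least 1 comparison; bars are 95% confidence intervals and open points have an adjusted p of 0.05 or more. Cyp2c55 at -4.43 and Cyp2d12 at -3.04 lie far to the left of the other members, and Cyp2j6 at 0.56 is farthest to the right.

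Many P450 genes were dim in this tissue. The 1194 olfactory and vomeronasal receptor genes on the array, used here as a gauge of background signal, had a median level of 4.91 and a 95th percentile of 6.20. Whether all of them are silent in this tissue was not tested. Of the 86 P450 genes 41 had a mean above that percentile and 45 did not. Among the 41, 22 were lower and 4 higher than in the controls. The shares of all genes given above include dim genes, so they are not a like measure for these 41. No share of all genes above that level is given here. How far the 22 and 4 are particular to P450 genes therefore cannot be read from these counts. Among the 45 dimmer members 2 were lower, Cyp2b10 and Cyp11a1, and none was higher, so a change in those genes could be missed where probe signal is mostly background.

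**Figure D2:**
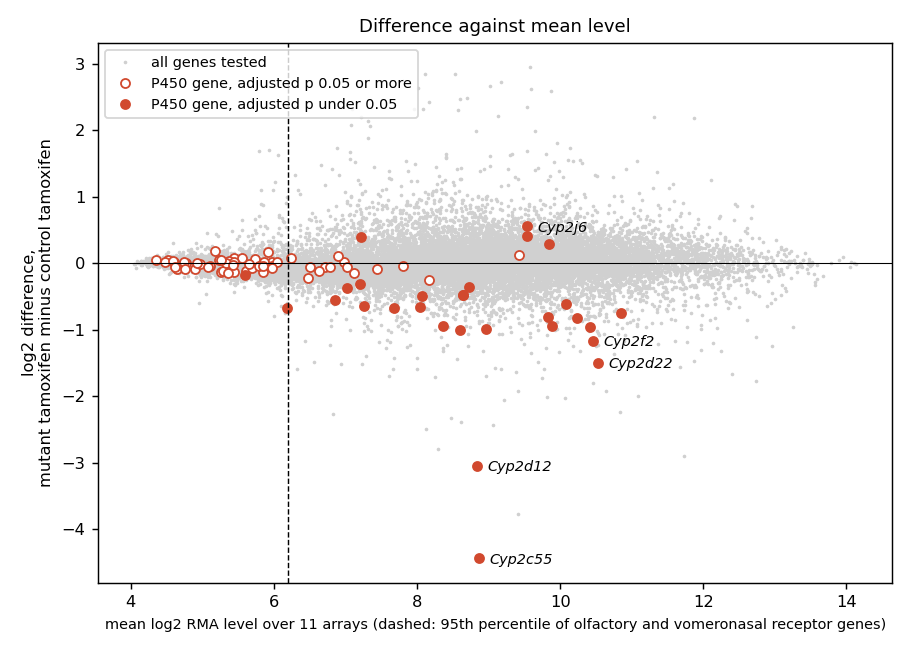
Log2 difference between mutant tamoxifen and control tamoxifen against the mean log2 level over the 11 arrays, for all genes tested (grey) and the P450 genes (red, filled where the adjusted p is under 0.05). The dashed line marks 6.20, the 95th percentile of the receptor genes, to the left of which 45 of the 86 P450 genes lie.

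The starts of P450 genes are shown for 4 genes of the CYP2C cluster on chromosome 19. Of these, Cyp2c55, Cyp2c67 and Cyp2c68 were lower than in the controls and Cyp2c65 did not pass the test. In the order of members Cyp2c55 is next to Cyp2c65 and Cyp2c67 next to Cyp2c68, with other Cyp2c genes between these pairs. Also shown are 2 near-copies of the CYP2D cluster on chromosome 15, of which Cyp2d9 was lower and Cyp2d11 did not pass. Each run is 300 bases from RefSeq on GRCm38.p6, from 250 bases before the first listed transcription start to 50 after it, read 5′ to 3′ on the gene's strand. Capitals mark the core of the HNF4 motif (CAAAGTCCA or CAAAGTTCA) and the letters TATAAA, each searched on both strands; none of the 71 matches of the 5 motifs searched in members' promoters overlapped a match of another motif.
Cyp2c55, chr19:39006769-39007068, plus strand: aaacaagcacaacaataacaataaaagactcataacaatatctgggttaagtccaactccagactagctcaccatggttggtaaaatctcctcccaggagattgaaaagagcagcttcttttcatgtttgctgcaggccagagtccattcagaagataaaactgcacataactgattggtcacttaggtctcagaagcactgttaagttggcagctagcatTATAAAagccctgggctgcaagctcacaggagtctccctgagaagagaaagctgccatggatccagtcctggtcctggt
Cyp2c65, chr19:39060756-39061055, plus strand: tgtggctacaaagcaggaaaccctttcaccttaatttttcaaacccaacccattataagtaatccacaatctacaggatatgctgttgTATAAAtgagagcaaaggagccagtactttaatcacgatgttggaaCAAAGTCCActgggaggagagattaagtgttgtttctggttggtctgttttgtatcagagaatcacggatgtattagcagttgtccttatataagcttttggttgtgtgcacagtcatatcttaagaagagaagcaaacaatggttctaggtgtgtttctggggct
Cyp2c67, chr19:39648993-39649292, minus strand: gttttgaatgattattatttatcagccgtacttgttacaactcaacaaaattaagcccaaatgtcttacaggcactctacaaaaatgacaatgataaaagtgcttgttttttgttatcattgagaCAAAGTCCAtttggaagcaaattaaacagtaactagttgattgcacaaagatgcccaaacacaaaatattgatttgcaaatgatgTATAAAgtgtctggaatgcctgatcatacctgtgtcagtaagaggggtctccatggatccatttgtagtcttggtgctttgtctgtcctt
Cyp2c68, chr19:39741052-39741351, minus strand: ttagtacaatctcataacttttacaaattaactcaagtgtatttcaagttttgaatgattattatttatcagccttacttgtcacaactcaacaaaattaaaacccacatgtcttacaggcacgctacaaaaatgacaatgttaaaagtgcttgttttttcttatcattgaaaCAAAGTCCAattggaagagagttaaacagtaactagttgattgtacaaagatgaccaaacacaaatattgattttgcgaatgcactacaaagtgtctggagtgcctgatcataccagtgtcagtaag
Cyp2d9, chr15:82452127-82452426, plus strand: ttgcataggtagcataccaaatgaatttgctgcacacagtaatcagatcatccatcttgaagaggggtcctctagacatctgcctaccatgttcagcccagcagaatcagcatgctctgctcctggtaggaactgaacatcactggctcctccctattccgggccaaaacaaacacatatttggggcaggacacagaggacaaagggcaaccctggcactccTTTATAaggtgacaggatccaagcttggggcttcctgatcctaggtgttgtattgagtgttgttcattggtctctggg
Cyp2d11, chr15:82393973-82394272, minus strand: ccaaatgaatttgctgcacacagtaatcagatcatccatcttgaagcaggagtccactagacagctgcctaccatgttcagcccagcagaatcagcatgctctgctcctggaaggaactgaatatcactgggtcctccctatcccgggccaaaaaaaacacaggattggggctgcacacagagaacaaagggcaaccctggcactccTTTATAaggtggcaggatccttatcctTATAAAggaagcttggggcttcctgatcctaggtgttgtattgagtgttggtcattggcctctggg

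The Cyp2c55 window holds TATAAA 29 bases before the start and no HNF4 core. The HNF4 core begins 116 bases before the start of Cyp2c65, 125 before that of Cyp2c67 and 77 before that of Cyp2c68. In an alignment over the whole window, Cyp2c55 shared 56% of positions with Cyp2c65, and Cyp2c67 shared 65.9% with Cyp2c68. Cyp2d9 and Cyp2d11 shared 84.5%.

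Promoters of 63 of the 86 P450 genes were in the table, and those of 23 were not, Cyp2d12 and Cyp2d22 among them. The HNF4 core was found in 8 of the 63 (12.7%), in Cyp2c65, Cyp2c67, Cyp2c68, Cyp2c70, Cyp3a11, Cyp3a16, Cyp8b1 and Cyp26a1, and in 0.862% of the promoters of all 27025 genes. Of the 16 members with a promoter that were lower than in the controls, 2 held it. TATAAA was found in 38.1% of the members' promoters and 14.2% of all. The nuclear receptor half-site AGGTCA was in 23.8% of the members' promoters and 16% of all, and the AHR core GCGTG in 23.8% and 32.5%. No member's window held the D-box of the circadian factors DBP, TEF and HLF (TTATGTAA or TTACGTAA), which 1.06% of all promoters hold. Promoters within a subfamily can be alike, as with Cyp3a11 and Cyp3a16, which shared 75.2% of positions. The members' matches therefore need not be separate occurrences, and their shares are not a like measure to those of all genes. A match is a run of letters and not a measured binding site.

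Within the CYP2C subfamily, 4 of 13 members were lower than in the controls and none was higher, with the same counts against mutant NaCl. Cyp2c55, an arachidonic acid oxidising enzyme known from mouse colon, had log2 levels of 6.75, 6.10, 6.12 and 7.22 in the mutant tamoxifen arrays, 11.16, 10.67 and 11.0035 in the controls, and 9.39, 9.55, 9.91 and 9.59 with NaCl. The groups did not overlap: the mutant tamoxifen arrays were lowest, the NaCl arrays lay between, and the controls were highest. It was 21.6-fold lower than in the controls (log2 difference -4.43, SE 0.27, adjusted p = 1.01e-05) and 8.36-fold lower than with NaCl (-3.06, SE 0.24, adjusted p = 2.81e-05). In both comparisons no other gene of the 19946 had a more negative log2 difference. The mutant NaCl arrays differed from the controls by -1.37 (95% confidence interval -1.97 to -0.77), with an adjusted p of 0.399.

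Its neighbours on chromosome 19 did not share that size of change. Cyp2c65, whose promoter is printed above, ranged from 5.82 to 7.04 in the mutant tamoxifen arrays and from 6.27 to 7.10 in the controls, a log2 difference of -0.22 (95% confidence interval -0.82 to 0.38). Cyp2c66 differed by 0.02 (-0.15 to 0.19). Further along, Cyp2c68 had levels of 8.90, 8.65, 8.02 and 8.45 in the mutant tamoxifen arrays against 8.999, 9.56 and 9.22 in the controls and 9.23, 9.62, 9.20 and 8.81 with NaCl. Its mutant tamoxifen arrays were below all controls but 1 of them was above the lowest NaCl array. It was lower by 0.99 against the controls (log2 difference -0.99, SE 0.13, adjusted p = 8.04e-04) and by 0.71 against NaCl (log2 difference -0.71, SE 0.12, adjusted p = 0.00182). Cyp2c23, a renal and vascular arachidonic acid epoxygenase, was lower by a log2 difference of -0.64 (adjusted p = 0.0136) against the controls and -0.54 (adjusted p = 0.0155) against NaCl, the former lost without control replicate 2 (-0.56, adjusted p = 0.101). Cyp2c67 gave -0.54 (adjusted p = 0.00874) and -0.49 (adjusted p = 0.00729), and the call against the controls was lost without replicate 3 with tamoxifen (-0.54, adjusted p = 0.0505). The other 9 members of the subfamily ranged in log2 difference from -0.22 to 0.05 against the controls. A cluster shared by Cyp2c40, Cyp2c67, Cyp2c68 and Cyp2c69, which is no member because its signal cannot be given to 1 gene, was also lower (-0.78, adjusted p = 0.00117, and -0.52, adjusted p = 0.00321).

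The CYP2D subfamily lies in 1 run on chromosome 15 and changed most widely: 9 of its 10 members were lower than in the controls and 6 of 10 were lower than with NaCl, with median log2 differences of -0.73 and -0.45. In 6 of the 10 all mutant tamoxifen arrays lay below all others. Cyp2d genes are close copies, so probes of 1 gene may also bind transcripts of another, and the 10 values need not be 10 separate changes. The sizes nonetheless differed between them, as the plot of genes in chromosomal order shows.

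**Figure D3:**
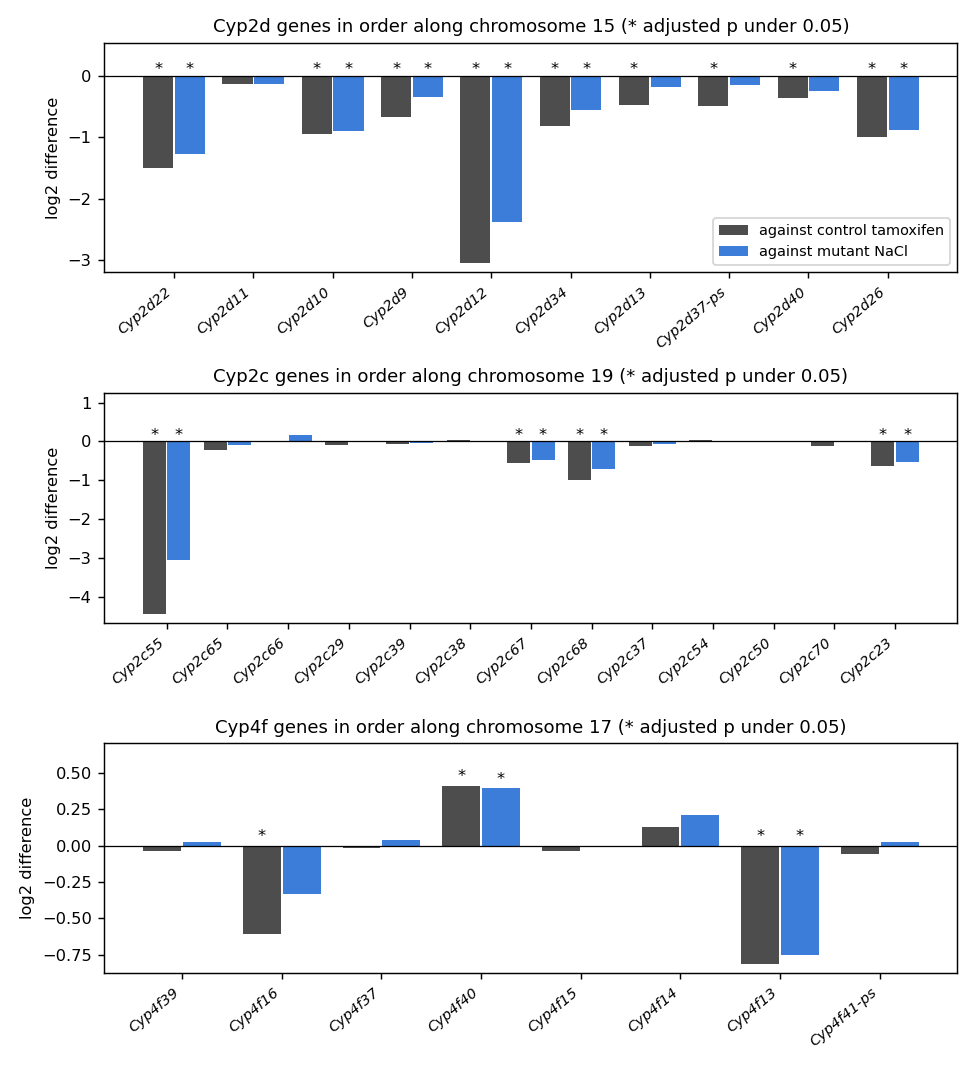
Log2 difference of the mutant tamoxifen group from control tamoxifen (grey) and mutant NaCl (blue) for the Cyp2d, Cyp2c and Cyp4f genes in their order along chromosomes 15, 19 and 17; stars mark an adjusted p under 0.05. Cyp2d bars are all below 0, Cyp2c55 stands alone at the left end of its cluster, and Cyp4f40 rises between Cyp4f genes that fall or stay near 0.

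Cyp2d12 had levels of 7.56, 7.28, 6.98 and 6.78 in the mutant tamoxifen arrays, 10.00, 10.27 and 10.16 in the controls and 9.40, 9.69, 9.45 and 9.59 with NaCl. Again the 3 groups did not overlap, with the NaCl arrays between the others. It was 8.22-fold lower than in the controls (log2 difference -3.04, SE 0.17, adjusted p = 4.57e-06) and 5.22-fold lower than with NaCl (-2.38, SE 0.15, adjusted p = 7.69e-06). Cyp2d22, often set beside human CYP2D6 as a drug-oxidising enzyme, had levels of 9.77, 9.57, 9.62 and 9.68 against 11.18, 11.10 and 11.20 in the controls and 10.84, 10.997, 10.90 and 10.94 with NaCl. It was 2.81-fold lower than in the controls (-1.49, SE 0.06, adjusted p = 2.65e-06) and 2.40-fold lower than with NaCl (-1.26, SE 0.06, adjusted p = 7.92e-07).

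Of the remaining CYP2D genes, Cyp2d26 (-0.998), Cyp2d10 (-0.94), Cyp2d34 (-0.81) and Cyp2d9 (-0.66) had log2 differences from the controls that were matched by -0.87, -0.90, -0.55 and -0.34 against NaCl, all past the threshold. Cyp2d9 is known as a testosterone hydroxylase made in male liver. Cyp2d37-ps, a pseudogene, had levels of 7.87, 7.95, 7.93 and 7.79 against 8.26, 8.45 and 8.40 in the controls, and its NaCl arrays, at 7.89, 8.15, 8.02 and 8.03, overlapped the mutant tamoxifen arrays. It was lower than in the controls (-0.49, adjusted p = 0.00197) and did not pass against NaCl (-0.14, adjusted p = 0.192). Cyp2d13 (-0.47) and Cyp2d40 (-0.36) were likewise past the threshold against the controls alone, with -0.17 and -0.24 against NaCl. The call of Cyp2d13 was lost when control replicate 2 (-0.27, adjusted p = 0.304) or 3, or replicate 1, 3 or 4 with tamoxifen, was left out (adjusted p from 0.061 to 0.304 over the 5). That of Cyp2d40 was lost without control replicate 1 or 2 or replicate 1, 2 or 3 with tamoxifen (-0.34 to -0.30, adjusted p from 0.057 to 0.166), and without replicate 4 with tamoxifen it passed against NaCl (-0.32, adjusted p = 0.021). Cyp2d11, at 5.15 to 5.61 in all arrays and so within the receptor genes' range, did not pass (-0.13, adjusted p = 0.329).

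In the CYP3A subfamily, the main drug-oxidising P450s of liver and gut, 1 of 6 members changed. Cyp3a13, the member known from intestine, had levels of 9.68, 9.80, 9.60 and 9.84 in the mutant tamoxifen arrays, 11.08, 10.51 and 10.67 in the controls and 10.96, 10.78, 10.59 and 11.04 with NaCl. The controls and NaCl arrays overlapped each other, and both lay above all mutant tamoxifen arrays. Its log2 difference was -0.96 from the controls (SE 0.14, adjusted p = 0.00115) and -1.11 from NaCl (SE 0.12, adjusted p = 2.08e-04). The other 5, Cyp3a11, Cyp3a16, Cyp3a25, Cyp3a44 and Cyp3a57, which are best known from liver, had mean levels under the receptor genes' 95th percentile and did not pass. Cyp3a25 gave -0.15 (adjusted p = 0.137) against the controls. Cyp3a44 had 5.29, 5.26, 5.47 and 5.11 in the mutant tamoxifen arrays, 5.10, 5.13 and 5.13 in the controls and 5.10, 4.96, 5.30 and 5.06 with NaCl. Its log2 difference was 0.18 from both (adjusted p = 0.169 and 0.142), and it passed against NaCl without NaCl replicate 3 (0.25, adjusted p = 0.0275).

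Among the other 15 CYP2 genes, 4 were lower in each comparison and none was higher. Cyp2s1, an enzyme of epithelia outside the liver, had levels of 10.53, 10.44, 10.27 and 10.49 in the mutant tamoxifen arrays against 11.47, 11.06 and 11.09 in the controls and 11.04, 11.04, 10.82 and 11.15 with NaCl. Its log2 difference was -0.75 from the controls (SE 0.12, adjusted p = 0.00158) and -0.58 from NaCl (SE 0.10, adjusted p = 0.00281). Cyp2u1, which oxidises long-chain fatty acids, had 7.26, 7.42, 7.15 and 7.32 against 7.98, 7.88 and 7.91 and, with NaCl, 7.82, 8.05, 7.84 and 7.82. Both genes had all mutant tamoxifen arrays below all others. The log2 difference of Cyp2u1 was -0.67 from the controls (SE 0.08, adjusted p = 4.78e-04) and -0.59 from NaCl (SE 0.07, adjusted p = 3.22e-04).

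Cyp2f2, which activates naphthalene in the airway, had a wide spread within the mutant tamoxifen group. Its levels were 10.35, 10.57, 8.53 and 9.87 in the mutant tamoxifen arrays, 11.10, 10.60 and 10.60 in the controls and 10.98, 11.13, 10.47 and 10.80 with NaCl. Replicate 3, the male, was lowest, and replicate 2 lay inside the range with NaCl. The log2 difference was -1.17 from the controls (SE 0.38, adjusted p = 0.0462) and -1.01 from NaCl (SE 0.33, adjusted p = 0.0477). Without that replicate it was -0.45 (adjusted p = 0.29) and -0.56 (adjusted p = 0.107). The call against the controls was lost as well without replicate 4 with tamoxifen, control replicate 1 or 3, or NaCl replicate 1 or 2 (adjusted p from 0.0604 to 0.29 over the 6 arrays). The call against NaCl was lost without replicate 1, 3 or 4 with tamoxifen, control replicate 3, or NaCl replicate 1, 2 or 4 (adjusted p from 0.0506 to 0.145 over the 7). The squamous marker mean of the same array, 8.28, was also the lowest of its group, in which the other arrays had 9.74 to 10.11; its part in the result was not tested. Cyp2b10, the usual target of the receptor CAR, was lower than the controls by a log2 difference of -0.67 (adjusted p = 0.0217) and did not pass against NaCl (-0.33, adjusted p = 0.173). The former call was lost without replicate 3 with tamoxifen (-0.37, adjusted p = 0.15), control replicate 1 (-0.55, adjusted p = 0.0614) or control replicate 2 (-0.76, adjusted p = 0.0637). Cyp2b9 was lower than with NaCl (-0.19, adjusted p = 0.00286), and against the controls it gave -0.05 (adjusted p = 0.426).

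**Figure D4:**
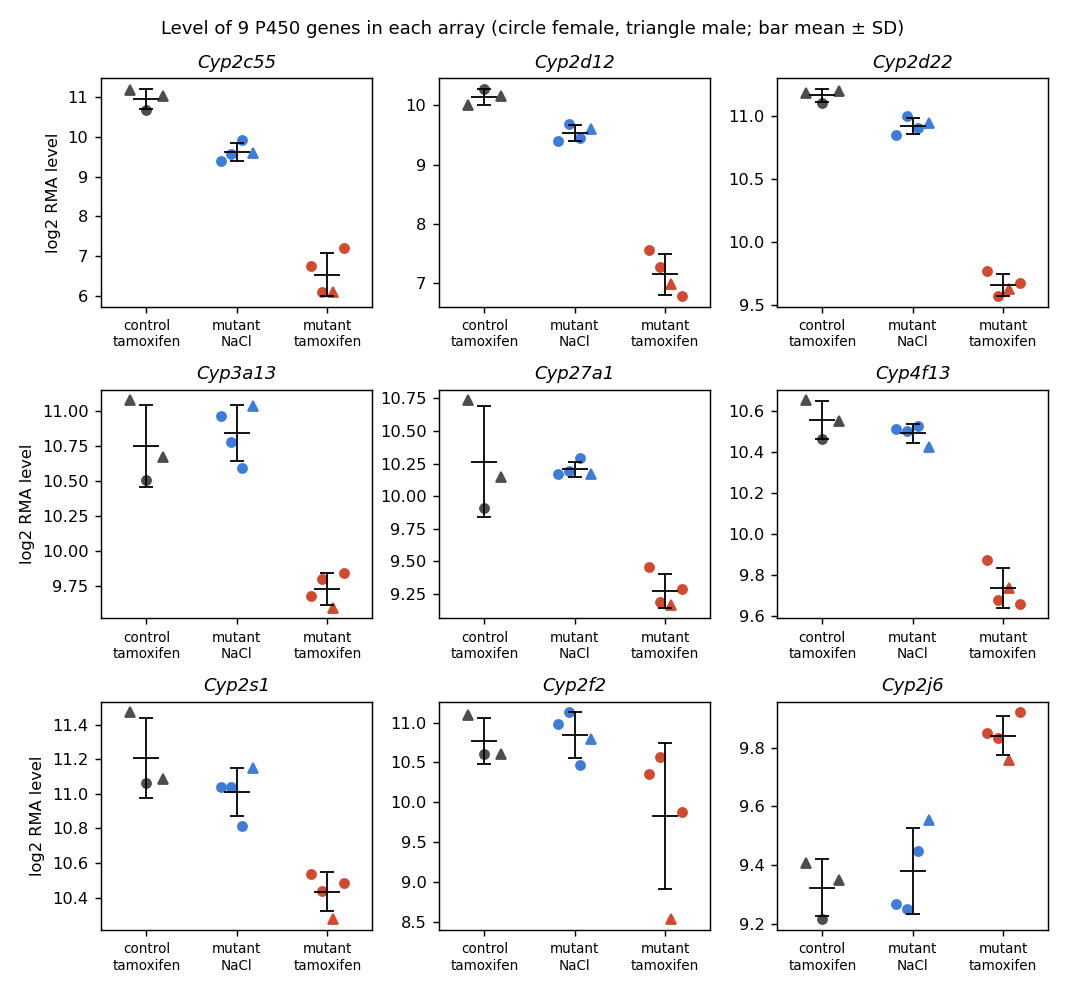
Log2 RMA level of 9 P450 genes in each array of the 3 groups; circles are females, triangles males, and black bars the mean and SD. In all but Cyp2f2 the 4 mutant tamoxifen arrays are clear of the 7 others, below them in 7 genes and above them in Cyp2j6; in Cyp2f2 replicate 3 at 8.53 pulls the mean down.

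The CYP2J enzymes make epoxides from arachidonic and linoleic acid. Cyp2j6 rose: its levels were 9.85, 9.83, 9.76 and 9.92 in the mutant tamoxifen arrays, 9.41, 9.21 and 9.35 in the controls and 9.27, 9.25, 9.45 and 9.55 with NaCl. All 4 mutant tamoxifen arrays were above all 7 others. The log2 difference was 0.56 from the controls (SE 0.08, adjusted p = 0.00125) and 0.46 from NaCl (SE 0.07, adjusted p = 0.00145), the highest among the P450 genes. Cyp2j9 was lower than with NaCl (-0.24, adjusted p = 0.0437) and gave -0.14 (adjusted p = 0.268) against the controls; the call was lost when any of 8 arrays was left out, namely replicates 2, 3 and 4 with tamoxifen, control replicate 3 and each NaCl array (-0.27 to -0.17, adjusted p from 0.0546 to 0.16). Cyp2j5 passed the threshold against NaCl at a size of 0.08 (adjusted p = 0.0319), with levels of 4.94 to 4.98 against 4.86 to 4.90, among the dimmest on the array. Leaving out replicate 2, 3 or 4 with tamoxifen or any NaCl array ended that call (0.07 to 0.08, adjusted p from 0.0511 to 0.0838 over the 7). The remaining members, Cyp2j11, Cyp2j12 and Cyp2j13, did not pass in either comparison.

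In the CYP4 family, 3 of 16 members were lower and 1 higher than in the controls, and 2 were lower and 1 higher than with NaCl. Cyp4f13, whose relatives inactivate leukotriene B4, had 9.87, 9.68, 9.74 and 9.66 in the mutant tamoxifen arrays against 10.65, 10.46 and 10.55 in the controls and 10.51, 10.50, 10.53 and 10.42 with NaCl. The mutant tamoxifen arrays were below all others, while controls and NaCl overlapped. The log2 difference was -0.81 from the controls (SE 0.07, adjusted p = 7.70e-05) and -0.75 from NaCl (SE 0.06, adjusted p = 3.83e-05).

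Cyp4f16 had 10.06, 9.87, 9.80 and 9.56 against 10.13, 10.47 and 10.42 in the controls, and 10.22, 10.33, 10.22 and 9.84 with NaCl, overlapping the NaCl arrays alone. It was lower than in the controls (-0.61, SE 0.13, adjusted p = 0.00689) and missed the threshold against NaCl (-0.33, SE 0.11, adjusted p = 0.0543), past which it moved when replicate 1 with tamoxifen (-0.39, adjusted p = 0.0388) or replicate 4 with NaCl (-0.41, adjusted p = 0.0385) was left out. Cyp4f40, from the same run of genes on chromosome 17, rose. Its levels were 10.04, 9.83, 9.82 and 9.58 with all others between 9.17 and 9.54, and its log2 differences were 0.41 (adjusted p = 0.0220) and 0.40 (adjusted p = 0.0146). The first call was lost without replicate 3 with tamoxifen (0.31, adjusted p = 0.147), control replicate 1 (0.36, adjusted p = 0.0639) or control replicate 2 (0.45, adjusted p = 0.0782), and the other without replicate 3 with tamoxifen (0.33, adjusted p = 0.0622) or NaCl replicate 4 (0.35, adjusted p = 0.0522). Cyp4b1, known from lung, was lower by -0.30 (adjusted p = 0.0162) and -0.28 (adjusted p = 0.0134), the former lost without replicate 3 with tamoxifen (-0.33, adjusted p = 0.0527). Cyp4f14 (0.13) and Cyp4f18 (-0.25), leukotriene hydroxylases of which the latter is made by neutrophils, did not pass against the controls (adjusted p = 0.598 and 0.321). All 5 Cyp4a genes measured, the fatty acid oxidising targets of PPARα, had mean levels under the receptor genes' 95th percentile and did not pass. A cluster shared by Cyp4v3 and Klkb1 was lower (-0.52, adjusted p = 0.00697, and -0.40, adjusted p = 0.0119).

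The bile acid and oxysterol enzymes split: 2 of 6 were lower and 1 higher, in each comparison. Cyp27a1, the mitochondrial enzyme that oxidises the cholesterol side chain, had 9.46, 9.19, 9.17 and 9.29 in the mutant tamoxifen arrays, 10.73, 9.91 and 10.15 in the controls and 10.17, 10.19, 10.29 and 10.17 with NaCl. Every mutant tamoxifen array was below every other array. The log2 difference was -0.95 from the controls (SE 0.16, adjusted p = 0.00263) and -0.93 from NaCl (SE 0.14, adjusted p = 0.00134). Cyp39a1, which hydroxylates an oxysterol made in brain, was lower by -0.35 (adjusted p = 0.0351) and -0.36 (adjusted p = 0.0182). The call against the controls was lost without replicate 2, 3 or 4 with tamoxifen, control replicate 2 or NaCl replicate 2 or 4 (-0.45 to -0.26, adjusted p from 0.0502 to 0.199), and that against NaCl without replicate 3 with tamoxifen (-0.30, adjusted p = 0.075). Cyp7b1, which breaks down the oxysterol that Cyp27a1 makes, rose from 7.11, 7.08 and 7.07 in the controls and 6.98, 7.07, 7.18 and 7.14 with NaCl to 7.58, 7.30, 7.53 and 7.42. Its mutant tamoxifen arrays were above all others, with log2 differences of 0.39 (SE 0.08, adjusted p = 0.00508) and 0.37 (SE 0.07, adjusted p = 0.00353). Cyp7a1 and Cyp8b1, known from the liver's bile acid pathway, and Cyp46a1 did not pass.

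The orphan gene Cyp20a1 had 9.90, 9.90, 10.06 and 9.99 in the mutant tamoxifen arrays, 9.77, 9.66 and 9.77 in the controls and 9.63, 9.82, 9.79 and 9.95 with NaCl, so that 1 NaCl array lay within the mutant tamoxifen range. It was higher than in the controls (0.29, SE 0.06, adjusted p = 0.00667). The difference from NaCl, 0.17 (SE 0.05, adjusted p = 0.0410), missed the threshold when any of 10 arrays was left out, all but control replicate 1 (0.12 to 0.19, adjusted p from 0.0514 to 0.102).

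Of the 5 genes of steroid hormone synthesis, 2 had a mean above the receptor genes' 95th percentile, and the differences past the threshold were small. Cyp11a1, which starts steroid synthesis from cholesterol, had 5.53, 5.53, 5.62 and 5.50 in the mutant tamoxifen arrays, 5.89, 5.66 and 5.74 in the controls and 5.58, 5.54, 5.46 and 5.56 with NaCl. It passed against the controls (-0.18, adjusted p = 0.0256), not against NaCl (0.01), and the call was lost without replicate 3 with tamoxifen (-0.18, adjusted p = 0.0942), without control replicate 1 (-0.14, adjusted p = 0.0639) and without control replicate 2 (-0.22, adjusted p = 0.0518). Cyp21a1 had 6.26, 6.29, 6.32 and 6.38 against 6.21, 6.17, 6.15 and 6.18 with NaCl and 6.19, 6.23 and 6.26 in the controls; it passed against NaCl (0.13, adjusted p = 0.0382) and not against the controls (0.09, adjusted p = 0.206), and leaving out replicate 2, 3 or 4 with tamoxifen, control replicate 2 or any NaCl array ended the call (0.11 to 0.14, adjusted p from 0.0537 to 0.0989 over the 8). The other 3 genes of this group, Cyp11b1, Cyp11b2 and Cyp17a1, did not pass.

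No member of the CYP1, CYP26 or vitamin D groups passed in either comparison. Cyp1a1, the classical target of the aryl hydrocarbon receptor, had 5.82, 5.76, 5.80 and 5.77 in the mutant tamoxifen arrays, 5.84, 5.99 and 5.88 in the controls and 5.86, 5.90, 5.80 and 5.89 with NaCl (-0.13 from the controls, adjusted p = 0.0812). Cyp1a2 had 5.11, 5.31, 5.23 and 5.21 against 5.27, 5.42 and 5.27 in the controls and 5.31, 5.21, 5.23 and 5.21 with NaCl (-0.12, adjusted p = 0.122). These levels lie within the receptor genes' range. Cyp26b1, which clears retinoic acid, had 7.28, 7.44, 7.37 and 7.52 against 7.52, 7.55 and 7.41 and, with NaCl, 7.37, 7.47, 7.35 and 7.52 (-0.09, adjusted p = 0.438). Its relative Cyp26a1 had 5.46, 5.37, 5.57 and 5.52 against 5.35, 5.49 and 5.36 and 5.38, 5.50, 5.42 and 5.45 (0.08, adjusted p = 0.324). Cyp27b1, which makes active vitamin D, had 5.67, 5.68, 5.73 and 5.69 against 5.74, 5.77 and 5.72 and 5.70, 5.76, 5.61 and 5.55 (-0.07, adjusted p = 0.350). Cyp2r1, which performs the preceding step, had 6.90, 7.12, 6.95 and 6.64 against 6.86, 6.77 and 6.75 and 7.02, 6.89, 7.09 and 6.88 (0.10, adjusted p = 0.513). In each of these genes the mutant tamoxifen arrays overlapped another group.

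The mutant NaCl and control tamoxifen groups differ in genotype and drug at once. No P450 gene passed the threshold in either direction between them, where 0% of all genes were higher and 0% lower (limma); the smallest adjusted p among the members was 0.399. At an unadjusted p under 0.05, 1 member was higher and 7 were lower, beside 693 and 932 of all genes. Cyp2c55 (-1.37), Cyp2d12 (-0.66) and Cyp2d37-ps (-0.35) had the smallest p among the members, with adjusted p of 0.399, 0.510 and 0.459. In 9 members all 4 NaCl arrays lay below all 3 control arrays, where 5.32% of all genes did, and 4 of the 9 were the CYP2D genes Cyp2d12, Cyp2d22, Cyp2d34 and Cyp2d37-ps. The rest were Cyp2c55, Cyp2j5, Cyp1b1, Cyp11a1 and Cyp4f41-ps. In 1 member, Cyp2r1, they lay above, where 2.82% of all genes did.

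Several P450 genes differ by sex in mouse liver. In the sex term here no P450 gene was called, among 0.015% of all genes called higher in males and 0.0201% lower. At an unadjusted p under 0.05, 5 members were higher and 4 lower in males, beside 656 and 553 of all genes. That is 10.5% of members and 6.06% of all genes. With 4 males and 7 females small differences could be missed.

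Lists of genes around the P450 enzymes were read in the same fit; a list's count is a description of its members. Of the redox partners, which pass electrons to P450s or help assemble them, 7 of 11 listed genes were measured and none passed against the controls, with log2 differences from -0.14 to 0.19. Cyb5r1 passed against NaCl (0.26, adjusted p = 0.0112), and against the controls when replicate 4 with tamoxifen was left out (0.23, adjusted p = 0.0254). The main reductase gene Por had no cluster with a single symbol and was not analysed here. Of 12 genes that make or break down haem, 4 were higher and 2 lower than in the controls. Hmox1, which degrades haem, was higher (0.64, adjusted p = 0.00578), as was Alas1, the rate-setting enzyme of haem synthesis (0.41, adjusted p = 0.00606), and Urod, a later step, was lower (-0.30, adjusted p = 0.00530). Hmox1 missed the threshold without control replicate 2 (0.58, adjusted p = 0.0513) and Alas1 without replicate 3 with tamoxifen (0.34, adjusted p = 0.0537).

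The flavin monooxygenases, a separate family of drug-oxidising enzymes, were lower in 4 of 4 measured genes against the controls and in 3 of 4 against NaCl. Fmo5 had 9.14, 9.16, 8.74 and 8.62 in the mutant tamoxifen arrays, 10.13, 10.10 and 10.05 in the controls and 9.55, 9.62, 9.63 and 9.62 with NaCl. Like Cyp2c55 and Cyp2d12, its 3 groups did not overlap and the NaCl arrays lay between the others. The log2 difference was -1.21 from the controls (SE 0.13, adjusted p = 2.19e-04) and -0.69 from NaCl (adjusted p = 0.00159). Fmo2 was lower by -1.22 (adjusted p = 0.00190) and -1.29 (adjusted p = 6.19e-04). Among 12 other enzymes of arachidonate and epoxides, 4 were lower and 1 higher than in the controls. Hpgd, which inactivates prostaglandins, fell (-0.50, adjusted p = 0.00170), as did the epoxide hydrolases Ephx1 (-0.63, adjusted p = 0.00758) and Ephx2 (-0.48, adjusted p = 0.0184). Both hydrolases missed the threshold without replicate 3 with tamoxifen (-0.47, adjusted p = 0.0659, and -0.48, adjusted p = 0.0793). Ptgs2, the inducible cyclooxygenase, was higher (1.27, adjusted p = 0.0220) with levels of 10.78, 9.01, 10.50 and 10.15 against 8.89 to 8.98 in the controls, a call lost without replicate 3 with tamoxifen or any control (1.10 to 1.44, adjusted p from 0.0506 to 0.124).

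Of the 35 measured receptors and factors that are known to regulate P450 genes, 16 were lower and 1 was higher than in the controls, and 13 were lower and 4 higher than with NaCl. Vdr, the vitamin D receptor, had 11.72, 11.44, 11.50 and 11.06 in the mutant tamoxifen arrays against 12.75, 12.59 and 12.65 in the controls and 12.55, 12.45, 12.36 and 12.49 with NaCl, with log2 differences of -1.20 (adjusted p = 2.38e-04) and -1.03 (adjusted p = 1.89e-04). Hnf4a, the nuclear receptor whose core motif is printed above, had 12.50, 12.49, 12.55 and 12.49 against 12.77, 12.80 and 12.74 and, with NaCl, 12.76, 12.77, 12.80 and 12.83. It was lower by a small but even step (-0.25, SE 0.04, adjusted p = 0.00110, and -0.28, adjusted p = 2.35e-04). Tef, a circadian factor that binds the D-box, was lower (-0.48, adjusted p = 0.00214, and -0.50, adjusted p = 7.91e-04). Pparg was the 1 receptor that rose against the controls (0.59, adjusted p = 2.12e-04, and 0.52, adjusted p = 1.42e-04). The aryl hydrocarbon receptor also drives genes other than P450s, of which 5 were measured. Tiparp was higher (0.30, adjusted p = 0.00937) and Ahrr lower (-0.35, adjusted p = 0.00302) than in the controls. Without control replicate 2 Tiparp missed the threshold (0.19, adjusted p = 0.118). Ahrr was dim, at 6.07 to 6.17 in the mutant tamoxifen arrays and 6.38 to 6.59 in the controls. The receptor genes' 95th percentile was 6.20.

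**Figure D5:**
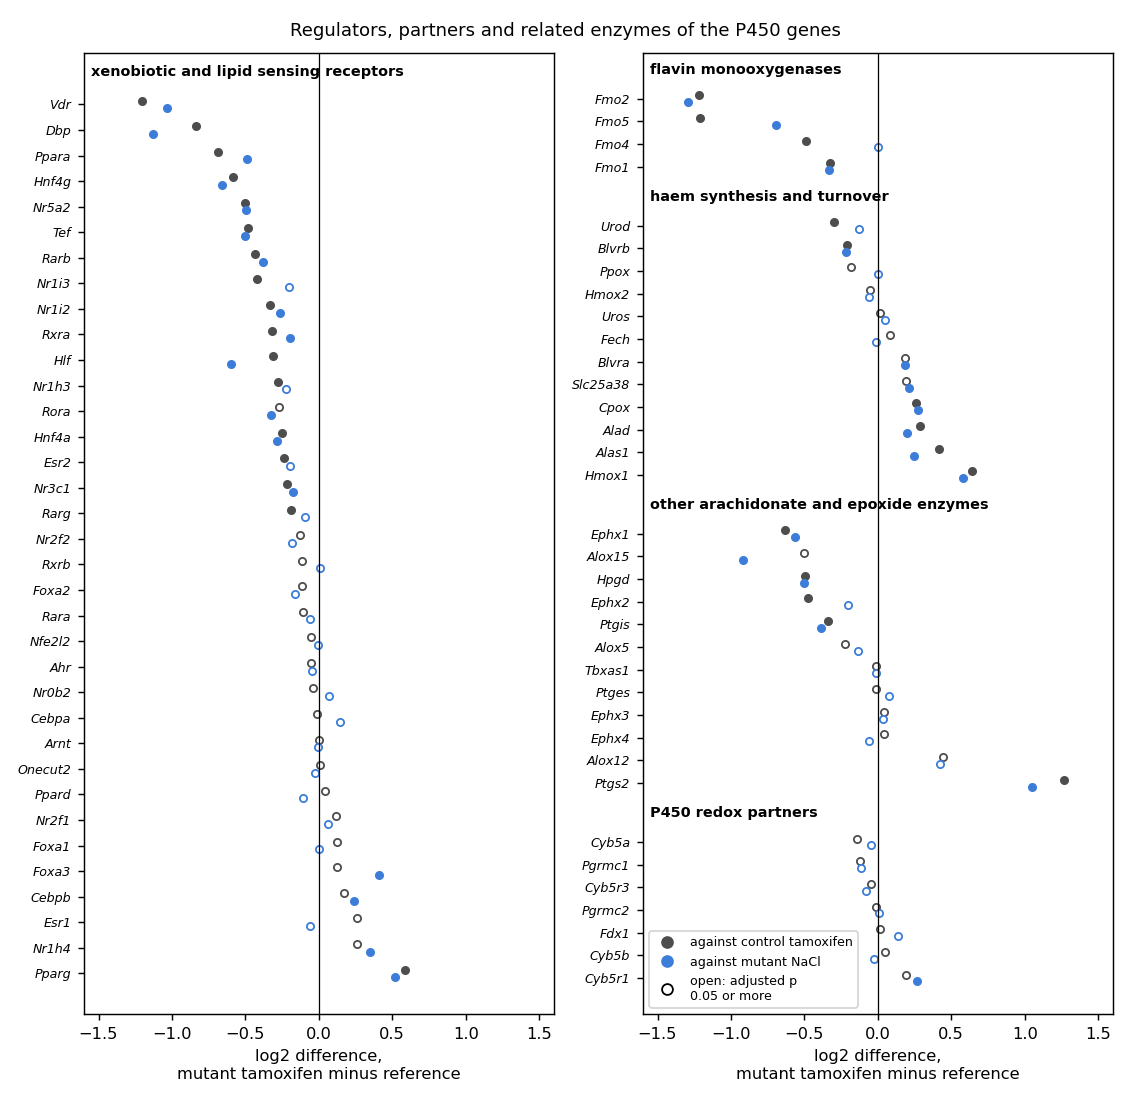
Log2 difference of the mutant tamoxifen group from control tamoxifen (grey) and mutant NaCl (blue) for the sensing receptors (left) and the flavin monooxygenases, haem genes, arachidonate and epoxide enzymes and redox partners (right); open points have an adjusted p of 0.05 or more. Most filled points among the receptors lie left of 0, led by Vdr at -1.20, and the redox partners lie close to 0.

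Markers of cell types moved with the groups. Of 15 markers of colonic epithelium, 4 were higher and 3 lower than in the controls, and 7 higher and 3 lower than with NaCl. Against the controls Slc26a3, the chloride and bicarbonate exchanger, fell (-1.67, adjusted p = 2.65e-06), as did the carbonic anhydrase gene Car4 (-1.24, adjusted p = 3.27e-06), while the keratin genes Krt18 (0.38, adjusted p = 7.22e-04) and Krt20 (0.70, adjusted p = 0.00601) rose. Epcam (-0.04), Cdh1 (0.01) and Lgals4 (-0.02) did not pass against the controls. Of 20 markers of the absorptive colonocyte, 12 were lower and 3 higher than in the controls, and the list's mean level was 10.88 to 10.996 in the mutant tamoxifen arrays, 11.30 to 11.51 in the controls and 11.37 to 11.47 with NaCl. All 11 smooth muscle markers were lower (list mean 11.45 to 11.58, against 12.01 to 12.13 and 11.88 to 12.15). Of 12 neutrophil markers 10 were higher and none lower (7.15 to 7.73, against 6.53 to 6.65 and 6.53 to 6.65). All 14 proliferation genes were higher than in the controls, and 11 of the 14 were higher than with NaCl. Their list mean was 10.32 to 10.44, against 9.19 to 9.82 and 9.78 to 10.02. Of 9 goblet cell markers 4 were higher and 2 lower than in the controls, and 5 higher and 2 lower than with NaCl. These shifts stand beside the P450 differences, and their part in them was not tested.

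Of the other lists, macrophage and dendritic cell markers had 1 of 13 higher and 3 lower than in the controls. Against NaCl they had 1 higher and 1 lower. B and plasma cell markers had 1 of 9 higher in each comparison. Fibroblast markers had 1 of 10 higher and 1 lower than in the controls, but 4 higher and 4 lower than with NaCl. T cell (9) and endothelial (10) markers had none in either comparison. Since many P450 genes are best known from liver, hepatocyte markers were read too. Of 9, Alb was higher than in the controls (1.42, adjusted p = 3.73e-04) and Apoc3 lower (-0.26, adjusted p = 0.0105). The Apoc3 call was lost without control replicate 2 (-0.21, adjusted p = 0.102). None of 16 squamous epithelium markers passed, though their mean ranged from 6.69 to 10.22 across arrays. By sign, 13 were higher and 3 lower in mutant tamoxifen than in the controls (median log2 difference 0.58). All 16 were higher with NaCl than in the controls (median 0.64), and all 16 were lower in males than in females (median -1.72). The lowest means, 6.69 and 7.80, were those of the 2 male controls. The part of this imbalance in the P450 differences was not tested.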

How the data were processed

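The deposited values are log2 signals that the authors made with RMA in Affymetrix Expression Console (version 1.1) after scanning with Command Console (version 2.0), per the labels; Partek is named with no role in the submitters' processing notes. The array was Affymetrix Mouse Gene 1.0 ST, with 1 array per animal. Of 35556 transcript clusters, the platform annotation lists 23410, of which 21797 have 1 gene symbol and 1613 several; the cluster with the highest mean was kept for each of 19946 genes. RefSeq (GRCm38.p6) supplied gene order and promoters; for the array files themselves the genome build is not given in the sources used here.

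Differences were tested with limma 3.58.1 in R 4.3.3 (a mean for each of 3 groups plus a sex term over all 11 arrays, variance trend on the mean level), calling genes at 0.05 after Benjamini-Hochberg adjustment over all of them; the code was tested on simulated data. The labels do not say whether animals shared a litter or cage. The members and lists were chosen with earlier results of these data known. Named with the value of every array were members past the threshold at 2-fold or more, the 2 with the smallest p in each role group and the 3 with the smallest p between mutant NaCl and control tamoxifen, and at most 4 of each other list with the smallest p. Other genes named, among them Cyp4f40, Cyp20a1 and members that make up counts of 5 or fewer, were named after their values were seen. As alternatives the fit was run with females alone, without the sex term, on the groups compared only, with dim genes left out, and with centring, quantile normalisation, no variance trend, array weights, other cluster choices, a 1.5-fold minimum, each array left out in turn and, added after seeing the data, only genes above the receptor level.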

Additional observations from a re-analysis of the deposited data

Results flagged for a closer look

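In the mutant NaCl group of 4 arrays, 2 values among the 25 named P450 genes stood apart from the other 3 arrays by Dixon's test. Cyp1a2 was 5.31 in replicate 1 (5.3087), against 5.21 to 5.23 in the others, a gap within the level of background signal. Cyp2u1 was 8.05 in replicate 2 (8.052), against 7.82 to 7.84. These were 2 of 50 groups tested, and chance flags about 1 in 20 groups.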

How the results depend on the processing

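The counts of P450 genes lower in the mutant tamoxifen group were within 1.5 times of their value in all settings tried, except with female arrays alone, where 15 were lower than in the control (1 array), and with a 1.5-fold minimum, where 11 were lower than with NaCl. Counts of higher genes rest on few genes. With female arrays alone, fewer were higher in both comparisons, and 7 had all mutant tamoxifen arrays above the others. That setting left 3 mutant tamoxifen, 1 control and 3 NaCl arrays, and fewer arrays separate more easily. The 7 is thus not a like count, and no share of all genes is given for it. With a 1.5-fold minimum none was higher in either comparison (0 and 0). Against NaCl, 3 were higher with the lowest 50% of genes left out and with every transcript cluster tested on its own, and a second quantile normalisation gave 5 with all mutant tamoxifen arrays above the others. With each array left out in turn, 16 to 24 were lower and 3 to 4 higher than in the controls, 17 to 20 lower and 2 to 7 higher than with NaCl. Leaving out replicate 3 with tamoxifen or replicate 4 with NaCl gave the 2. No named gene or count reversed; of the values for single genes under the alternatives, 4719 kept their side of the threshold, 157 lost their call and 14 gained one. With female arrays alone (1 control), calls against the control lost include those of Cyp7b1 (0.35, adjusted p = 0.141), Cyp4f16 (-0.64, adjusted p = 0.0594) and Cyp20a1 (0.27, adjusted p = 0.135). With the lowest 50% of genes by level left out, the median over the remaining members was -0.75 against the controls and -0.55 against NaCl. That setting dropped 63 of the 86 members, and no median of all remaining genes is given beside it. It is thus not a like value to the medians over all members. Centring or renormalising shifted the median of all genes by at most 0.0151. No paired analysis was possible because replicate numbers follow accession order and pair no animals.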

Other observations

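Cyp2b19 and Cyp4f39, P450 genes known from skin, did not differ between the groups but varied widely between arrays. Cyp4f39 had 8.26, 8.27, 7.21 and 7.77 in the mutant tamoxifen arrays, 7.39, 8.24 and 7.37 in the controls and 7.95, 8.33, 7.31 and 7.81 with NaCl. Cyp2b19 had 6.57, 6.32, 5.59 and 5.70, then 5.59, 6.11 and 5.52, and 5.70, 6.35, 5.65 and 6.07. The mean of 16 squamous epithelium markers was 10.08, 10.11, 8.28 and 9.74, then 6.69, 10.22 and 7.80, and 9.92, 10.16, 8.91 and 9.30 in the same arrays. For both genes the 4 highest arrays were the 4 with the highest squamous mean (replicates 1 and 2 with tamoxifen, control replicate 2 and NaCl replicate 2), and the 4 lowest were the 4 with the lowest. These 2 were the only members of the 86 with that order, which was looked for after their values were seen. Of the 4 males, 3 were among the lowest 4 arrays.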
